A study of Homo sapiens with 4 samples.

Results

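Imprinted growth genes and H19 were followed in Huh7 and PLC cells, a pair of human hepatocellular carcinoma (HCC) lines, both of wild-type genotype. The 10 members were chosen by name out of the 59652 genes of the count table: IGF2, H19, DLK1, MEG3, PEG3, PEG10, KCNQ1OT1, CDKN1C, PLAGL1 and MEST, and all 10 were found in it. The cells grew for 48 h in glucose-free medium with serum, to which 5 mM (low glucose) or 25 mM (high glucose) glucose was added, and RNA depleted of rRNA was sequenced from directional libraries. There was 1 library for each of the 4 combinations of line and glucose, with no replicate cultures, and each line stands for itself alone.

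An imprinted gene is transcribed mainly from the chromosome copy inherited from 1 parent, and DNA methylation laid down in the germ line tells the copies apart. Many imprinted genes act on fetal growth: those active on the paternal copy, such as IGF2, tend to promote it, and those active on the maternal copy, such as CDKN1C, tend to restrain it. In the liver, IGF2, H19 and DLK1 are high before birth, fall afterwards and can return in liver tumours. H19 and IGF2 lie side by side, and the insulator protein CTCF, bound to the unmethylated maternal control region upstream of H19, keeps enhancers from reaching IGF2. Reads in this table carry no allele, so nothing here shows which copy was transcribed.

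The CTCF motif matches beside H19 are shown because H19 and IGF2, on either side of most of them, were read in opposite lines. On chromosome 11 of hg38 the table placed H19, a long non-coding RNA (lncRNA), from 1995176 to 2001470 and IGF2 from 2129112 to 2141238, both on the minus strand and 127642 bases apart. The 14-letter CTCF motif CCGCGNGGNGGCAG, searched on both strands, occurred 5 times between the outer ends of both genes, within 3065 bases around the start of H19. Read 5′ to 3′ on the minus strand, with the motif in capitals, the matches were:
site 1, chr11:1999960-1999989: ggaagtggCCGCGCGGCGGCAGtgcaggct
site 2, chr11:2000772-2000801: ggaagtggCCGCGTGGCGGCAGtgcaggct
site 3, chr11:2002205-2002234: aaaagtggCCGCGCGGCGGCAGtgcaggct
site 4, chr11:2002606-2002635: ggaagtggCCGCGCGGCGGCAGtgcaggct
site 5, chr11:2003011-2003040: agaagtggCCGCGCGGCGGCAGtgcaggct
The motif letters were the same in 4 of the 5 sites, and all 5 shared the 6 bases before the motif and the 8 bases after it. Sites 1 and 2 lay in an intron of H19 as the table drew the gene, and sites 3, 4 and 5 lay between both genes. GENCODE release 44 draws H19 longer, up to 2004552, which takes in all 5 sites. The motif was found in 18 of 26892 windows of 5000 bases on chromosome 11 (0.0669%) and in 23 of 35116 RefSeq promoters on GRCh38.p14, each from 250 bases before a gene's start to 50 after it (0.0655%). The 5 sites are among 21 matches on chromosome 11. Only this pattern was searched, so these shares do not count CTCF sites with other letters. A match describes letters of the reference only, and neither binding nor methylation was measured in these cells.

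**Figure D1:**
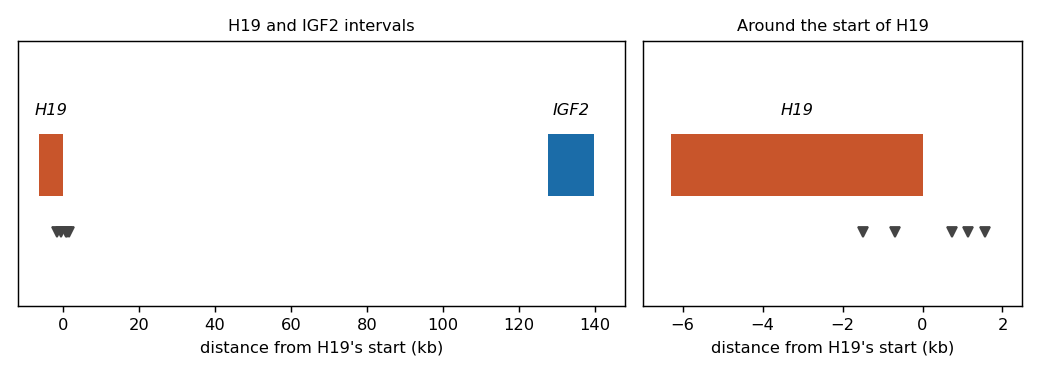
H19 and IGF2 as intervals of the table, drawn to scale by distance from the start of H19 in kilobases (kb), with the whole domain on the left and the surroundings of H19 on the right. Triangles mark the 5 motif matches, of which 2 lie inside the table's H19 and the farthest upstream lies 1.56 kb from its start.

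H19 also carries a microRNA in an exon, which is shown because all of its bases are also bases of its host. The RefSeq mature sequences, with the seed (bases 2 to 8) in capitals, were as follows:
hsa-miR-675-5p, chr11:1996800-1996822: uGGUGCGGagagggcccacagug
hsa-miR-675-3p, chr11:1996768-1996787: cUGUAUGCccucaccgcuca
The seeds of the 2 arms differ. Its gene, MIR675, was listed at 0 reads in all 4 libraries. Every base of it lies in exons of H19, so by the counting described next its level cannot be read here.

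The way the reads were counted touches several members and comes before the values. All 2040 genes of the table whose exonic bases are all shared with exons of other genes had 0 reads in every library. Of these, 813 shared all their bases only when genes on the opposite strand were included. Among the 41414 genes that share no exonic base, 38.9% were at 0. By this measure reads on shared bases were given to no gene, and strand was not used to tell genes apart, although the libraries were directional. IGF2 was the member with the least room left: 1744 of its 6259 exonic bases (27.9%) were free of other genes. The clone-named gene AC132217.2 on the same strand covered 70.7% of IGF2, and the read-through gene INS-IGF2 covered 15.9%. The free bases of IGF2 lie in 5 stretches from 2133666 to 2141238, of which the longest, 1161 bases, runs from 2138229 to 2139389. In GENCODE release 44, 1573 of the free bases are untranslated and 171 are coding, against 717 coding bases in the whole gene. The IGF2 counts below are thus counts of part of the gene, and transcripts that do not use these stretches cannot be seen. PEG3 kept 49.1% of its bases, MEST 72.4% and H19 92.6%, and the other 6 members kept at least 96.7%.

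**Figure D2:**
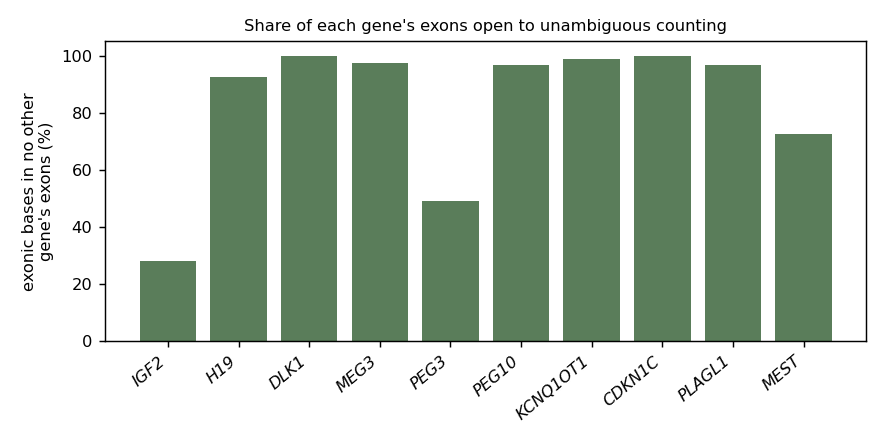
Share of each member's exonic bases, in percent, that no other gene's exons hold on either strand, 1 bar per gene. IGF2 has 27.9% and PEG3 49.1%, while DLK1 and CDKN1C have 100%.

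Counted reads came to between 16049686 and 30279716 per library, and the floor of 3 reads stood for 0.0991 to 0.187 CPM, which is the read count scaled by the library total alone. The cell labels were checked against markers. The 10 hepatocyte markers summed to 4013 and 4036 FPKM in Huh7 cells and to 460 and 641 in PLC cells at 5 mM and 25 mM glucose, where FPKM is the read count scaled by gene length and library total. In PLC cells the liver genes TTR and FOXA2 were near 0, with 4 reads each at 5 mM and 0 at 25 mM, while HNF4A, a master regulator of hepatocytes, stood at 35 and 38.5 FPKM. AFP, the fetal albumin-like protein used as a tumour marker, was present in all 4 libraries with 306 to 1434 FPKM. Markers of fibroblasts summed to between 0.725 and 7.17 FPKM, those of endothelium to between 0.135 and 2.55, and those of blood cells to between 0.73 and 4.89. The defining endothelial genes VWF, CDH5, KDR and TEK had at most 2 reads, and CD3E and HBB had 0. Others of these markers were read, mostly in Huh7 cells: PECAM1 had 2.37 and 2.55 FPKM there and 0.115 and 0.29 in PLC cells, CD14 had 4.2 and 4.84 against 0.681 and 2.95, and LUM, a fibroblast marker, had 6.31 and 5.4 against 0 and 0. Their part in the differences between the lines was not tested.

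The clearest contrast lay between the lines and not between the glucose levels. IGF2, which encodes a fetal growth factor, was read in Huh7 cells, and H19 was read in PLC cells. Huh7 cells had 646 reads of IGF2 at 5 mM glucose and 1127 at 25 mM, and PLC cells had 0 and 1. On the CPM scale these are 30.2 and 37.5 CPM in Huh7 cells against 0 and 0.0623 CPM in PLC cells. H19 ran the other way, with 4 and 4 reads in Huh7 cells against 3315 and 3606 in PLC cells. In CPM, H19 stood at 0.187 and 0.133 in Huh7 cells and at 109 and 225 in PLC cells. The lines did not overlap for either gene, but the share of all genes that did not overlap was not counted. Differences between the lines were common, as the shares given below show. At 5 mM glucose IGF2 was at least 305-fold higher in Huh7 than in PLC cells, counted against the floor of 3 reads in the PLC library. The 95% counting interval reached down to 247-fold. At 25 mM the ratio was 601 (95% interval 108 to 23768), which rests on 1 read in PLC cells. H19 was 585-fold higher in PLC cells at 5 mM (228 to 2149) and 1690-fold higher at 25 mM (659 to 6205). These exact (Clopper-Pearson) intervals cover counting error only and compare a pair of libraries. Of the reads on H19 and IGF2 together, H19 held 0.615% and 0.354% in Huh7 cells and 100% in both PLC libraries to 3 digits, with the lowest interval bound at 99.8%. These are raw reads on 92.6% of the exonic bases of H19 and 27.9% of those of IGF2, so this is not a share of transcripts.

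DLK1, a transmembrane relative of the Notch ligands that marks hepatoblasts, had the pattern of IGF2. Huh7 cells had 398 reads of it at 5 mM and 378 at 25 mM (18.6 and 12.6 CPM) and both PLC libraries had 0. Against the floor of 3 reads that is at least 188-fold and at least 67.2-fold higher in Huh7 cells. The counting intervals reached down to 152-fold and 54.4-fold. MEG3, the maternally expressed lncRNA 41186 bases downstream of DLK1 on chromosome 14, was not detected in Huh7 cells. There the counting intervals of 0 reads reached up to 0.173 CPM at 5 mM and 0.123 CPM at 25 mM. In PLC cells it had 9 reads at 5 mM and 0 at 25 mM. MEG3 stayed at or below 0.297 CPM in all 4 libraries, so PLC cells, which lacked reads of DLK1, had hardly any of its neighbour either.

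CDKN1C encodes p57, an inhibitor of cyclin-dependent kinases and a brake on growth. It had 59 and 108 reads in Huh7 cells (2.76 and 3.59 CPM) and 4 and 0 in PLC cells. The ratio of Huh7 to PLC cells was 20.9 at 5 mM (7.74 to 79.2). At 25 mM Huh7 cells were at least 19.2-fold higher against the floor of 3 reads, and the counting interval reached down to 15.4-fold. KCNQ1OT1, the paternally expressed lncRNA that silences CDKN1C in cis in the same domain of chromosome 11, was read in all 4 libraries. It had 609 and 604 CPM in Huh7 cells against 218 and 335 CPM in PLC cells, or 6.65, 6.59, 2.37 and 3.66 FPKM over its 91667 bases. Both the silencing RNA and its target thus stood higher in Huh7 cells. KCNQ1, whose intron holds KCNQ1OT1, had 3 and 4 reads in Huh7 cells and 0 in PLC cells.

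PEG10 had the highest level of the members in Huh7 cells. It derives from a retrotransposon, is expressed from the paternal copy and is needed for the placenta. Its level was 344 and 425 FPKM in Huh7 cells against 35.5 and 46.4 FPKM in PLC cells. The ratio between the lines was 9.68 at 5 mM (9.45 to 9.93) and 9.16 at 25 mM (8.9 to 9.43). SGCE, the imprinted gene that starts next to PEG10 on the opposite strand, had 96.6 and 108 CPM in Huh7 cells against 88.9 and 95.5 CPM in PLC cells. Its difference between the lines was 0.15 on the log2 scale (SE 0.22, adjusted p = 0.63, edgeR), so the gap in PEG10 was not seen in SGCE. CASD1, the nearest gene before PEG10 and on the same strand, was higher in Huh7 cells by 0.99 (SE 0.27, adjusted p = 0.0085, edgeR).

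PLAGL1 differed between the lines about as much as PEG10, and MEST differed far less. PLAGL1, a zinc finger factor known as a regulator of other imprinted genes, had 69.6 and 64 CPM in Huh7 cells against 6.7 and 8.1 CPM in PLC cells, a ratio of 10.4 at 5 mM (8.96 to 12.1) and 7.9 at 25 mM (6.61 to 9.51). MEST, an enzyme of the alpha/beta hydrolase fold with a role in fetal growth, had 29.9 and 30.7 CPM in Huh7 cells against 17.3 and 16.1 CPM in PLC cells. The ratio between the lines for MEST was 1.73 at 5 mM (1.54 to 1.94) and 1.91 at 25 mM (1.66 to 2.2). HYMAI, the lncRNA that overlaps PLAGL1, did not pass the test between the lines (log2 difference 0.92, SE 0.43, adjusted p = 0.101, edgeR).

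PEG3, a paternally expressed zinc finger gene, had 18 reads in PLC cells at 5 mM glucose and 0 in the other 3 libraries. PEG3 and MEG3 were too low for any test.

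In hg38, as the table gives them, DLK1 lies on chromosome 14 from 100725705 to 100738224 and MEG3 from 100779410 to 100861031, both on the plus strand. KCNQ1OT1 lies on chromosome 11 from 2608328 to 2699994 and CDKN1C from 2883213 to 2885775, both on the minus strand. PEG10 (94656325 to 94669695) and MEST (130486171 to 130506465) lie on the plus strand of chromosome 7. PLAGL1 lies on the minus strand of chromosome 6 from 143940300 to 144064599, and PEG3 on that of chromosome 19 from 56810077 to 56840728. H19, MEG3 and KCNQ1OT1 are lncRNA genes in GENCODE release 44 and the other 7 are protein-coding.

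**Figure D3:**
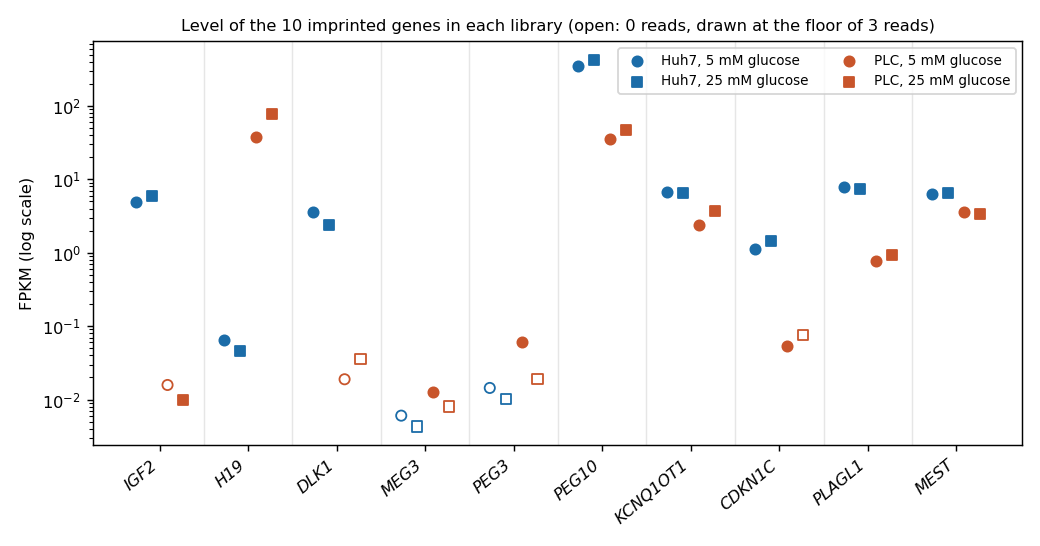
FPKM of the 10 members on a log scale, 1 point per library (blue Huh7, orange PLC, circles 5 mM and squares 25 mM glucose), where open symbols are libraries with 0 reads drawn at the floor of 3 reads. H19 is the member that stands higher in both PLC libraries than in both Huh7 libraries, while IGF2, DLK1, PEG10, KCNQ1OT1, CDKN1C, PLAGL1 and MEST stand higher in Huh7 cells.

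Ordered by FPKM, both Huh7 libraries gave PEG10, PLAGL1, KCNQ1OT1, MEST, IGF2, DLK1, CDKN1C and H19. On the table's lengths the neighbours KCNQ1OT1 and MEST did not differ beyond counting error: at 5 mM they stood at 6.65 and 6.27 FPKM, with 5.79 to 6.78 as the interval of MEST, and at 25 mM at 6.59 and 6.45 FPKM. When length was taken as free bases only, IGF2 rose from 4.83 to 17.3 FPKM at 5 mM and from 5.99 to 21.5 FPKM at 25 mM, which put it next after PEG10. MEST then stood at 8.66 and 8.9 FPKM, above PLAGL1 (8.24 and 7.58) and KCNQ1OT1 (6.73 and 6.67), so the order below PEG10 depends on the length used. In PLC cells H19 came first with 37.8 FPKM at 5 mM and 77.6 at 25 mM, and PEG10 followed with 35.5 and 46.4. MEST (3.63 and 3.37 FPKM) and KCNQ1OT1 (2.37 and 3.66 FPKM) changed places between the 2 PLC libraries on the table's lengths. On free bases MEST stood above KCNQ1OT1 in both, with 5.01 against 2.4 FPKM at 5 mM and 4.66 against 3.7 at 25 mM.

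The line difference was tested by a quasi-likelihood fit of the counts in edgeR, with line and glucose as terms, which leaves 1 residual degree of freedom among 4 libraries and borrows the spread from all genes. An adjusted p under 0.05 was reached by 42.9% of the 23217 genes tested, with 21.8% of genes higher in Huh7 cells and 21.1% higher in PLC cells. Against so common a difference a call says little about a member, and the size says more. All 8 members that passed the filter on low counts were called, 7 higher in Huh7 cells and H19 higher in PLC cells. IGF2, H19, DLK1 and CDKN1C passed the filter through 1 line alone, so a difference was built into their test. For the 4 that were read in both lines, the log2 difference (Huh7 minus PLC) was 3.23 for PEG10 (SE 0.19, adjusted p = 2.74e-08), 3.18 for PLAGL1 (SE 0.27, adjusted p = 9.46e-07), 1.16 for KCNQ1OT1 (SE 0.21, adjusted p = 0.000622) and 0.86 for MEST (SE 0.27, adjusted p = 0.0211), all by edgeR. The median over all genes tested was 0.03. The call of MEST was lost when the low-glucose or the high-glucose Huh7 library was left out in a fit without the glucose term (edgeR adjusted p = 0.21 and 0.219), while its log2 difference stayed at 0.86 and 0.85. The fitted log2 differences of H19 (-10.03), IGF2 (10.24) and DLK1 (11.65) depend on the small count that edgeR adds where reads are at or near 0, and the bounds above describe them better.

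**Figure D4:**
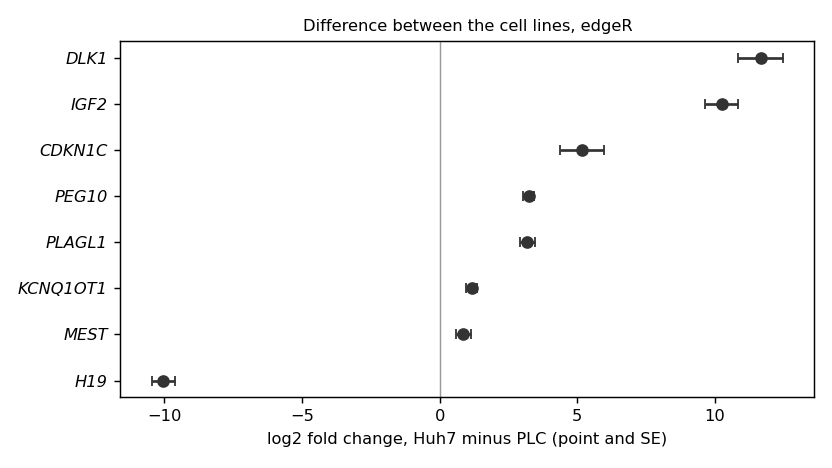
Fitted log2 difference between the lines (Huh7 minus PLC) with its SE for the 8 members tested by edgeR. H19 lies at -10.03 and the other 7 lie between 0.86 and 11.65, and the values of IGF2 and DLK1 rest on PLC libraries with at most 1 read.

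By the thresholds for 1 library against 1 (FPKM over 0.5 in at least 1 of them, and a ratio of FPKM + 0.1 over 1.5 or under 0.67), the same 8 members passed between the lines at each glucose level. Those thresholds took 66.8% of all eligible genes at 5 mM and 65% at 25 mM. A stricter description asked for at least 1 CPM in both libraries of a line and under 0.2 CPM in both of the other, cut-offs set after these values were seen. IGF2, DLK1 and CDKN1C were on in Huh7 and off in PLC cells, as were 3.98% of the 17883 genes on in either line. H19 was on in PLC and off in Huh7 cells, as were 3.47% of them. Within each line, fewer cells that make an RNA and less of it per cell cannot be told apart in bulk RNA.

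High glucose was then compared with low glucose. H19 in PLC cells had the largest ratio of any member with more than 3 reads in both libraries: 109 CPM at 5 mM and 225 CPM at 25 mM, a ratio of 2.05 (1.96 to 2.15). Among the 3882 genes with at least 1000 reads in both PLC libraries, 124 (3.19%) had a ratio as high or higher, and among all 21749 eligible genes 3071 (14.1%) did. The thresholds took 43.3% of all eligible genes in PLC cells, and 2 of the 5 eligible members, H19 and KCNQ1OT1. In Huh7 cells they took 27.8% of eligible genes and 0 of the 7 eligible members. Scaling the libraries with TMM shifted every log2 ratio by -0.12 in PLC and -0.039 in Huh7 cells. On that scale H19 in PLC cells was at 1.89, KCNQ1OT1 fell under the threshold at 1.4, and DLK1 in Huh7 cells came to lie under 0.67, at 0.666. The high-glucose PLC library was also the shallowest. In PLC cells the 11 fetal liver markers summed to 410 FPKM at 5 mM and 1128 at 25 mM. AFP alone made up 306 and 1011 of these, and the other markers went both ways. SALL4 went from 2.68 to 8.39 FPKM and GPC3 from 28.2 to 21.3. The hepatocyte markers summed to 460 and 641 FPKM. The part of depth and of these markers in the H19 ratio was not tested.

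Among members with more than 3 reads in both libraries, the other ratios lay closer to 1. KCNQ1OT1 had a ratio of 1.54 in PLC cells (1.49 to 1.6) and 0.992 in Huh7 cells (0.97 to 1.01). PEG10 had 1.31 in PLC cells (1.26 to 1.36) and 1.24 in Huh7 cells (1.22 to 1.25). IGF2 in Huh7 cells had 1.24 (1.12 to 1.37), and CDKN1C had 1.3 (0.938 to 1.82). DLK1 was the member with the lowest ratio in Huh7 cells apart from those at a few reads, at 0.675 (0.585 to 0.779). IGF2 and DLK1, both off in PLC cells, thus had ratios on opposite sides of 1 in Huh7 cells. PLAGL1 had 0.919 in Huh7 cells (0.859 to 0.984) and 1.21 in PLC cells (0.962 to 1.51), and MEST had 1.03 (0.929 to 1.14) and 0.929 (0.797 to 1.08). H19 in Huh7 cells, with 4 reads in each library, gave 0.711 (0.132 to 3.81), which cannot be read as a change. PEG3 and MEG3 in PLC cells went from 18 and 9 reads at 5 mM to 0 at 25 mM, which is at least 3.18-fold and 1.59-fold lower against the floor of 3 reads, while the counting intervals reach down to 2.33-fold and 1.05-fold.

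**Figure D5:**
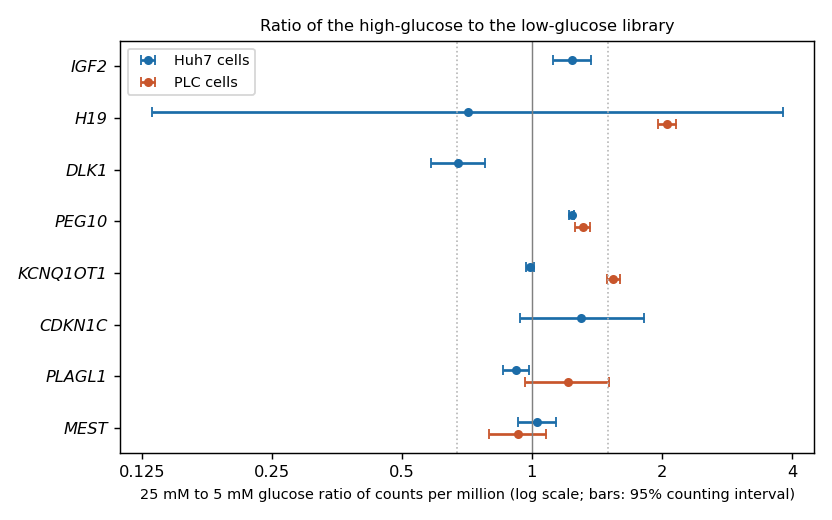
Ratio of 25 mM to 5 mM glucose in CPM on a log scale for members with more than 3 reads in both libraries of a line, with the 95% counting interval. Dotted lines mark 0.67 and 1.5: H19 in PLC cells lies at 2.05 and KCNQ1OT1 in PLC cells at 1.54, and the wide bar of H19 in Huh7 cells rests on 4 reads per library.

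The glucose ratios of both lines were set against each other. The Huh7 ratio was 0.644 of the PLC ratio for KCNQ1OT1 (0.617 to 0.672), 0.761 for PLAGL1 (0.604 to 0.958), 0.946 for PEG10 (0.911 to 0.983), 1.11 for MEST (0.925 to 1.33) and 0.346 for H19 (0.0865 to 1.39). These intervals again cover counting error only, and with 1 library a condition no test of the difference was possible.

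For a change with glucose common to Huh7 and PLC cells, the same edgeR fit called 0 of the 8 members, where it called 0.379% of all genes. DESeq2 called 0 as well. H19 alone of the 8 members had an unadjusted p under 0.05 (log2 change 0.77, SE 0.32, edgeR adjusted p = 0.513), and its change came from PLC cells. Of all 23217 genes tested, 1975 were under 0.05 too, so 1 such member says little. The log2 change was 0.35 for IGF2 (SE 0.42, edgeR adjusted p = 0.943), 0.27 for PEG10 (SE 0.17, adjusted p = 0.781) and -0.60 for DLK1 (SE 0.47, adjusted p = 0.855), and the median over the 8 was 0.11, against -0.01 over all genes tested. The power of this fit is low, and the members are not shown to be unaffected by glucose.

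The genes around the members were read as well. Of 33 genes that overlap a member, 23 were at 0 in every library, and 17 of those have no exonic base of their own. IGF2-AS, the antisense lncRNA of IGF2, had 24 and 21 reads in Huh7 cells and 0 in both PLC libraries, the pattern of IGF2 itself. MIR483, in an intron of IGF2, had 3 reads at 25 mM in Huh7 cells and 0 elsewhere. COPG2, which overlaps the end of MEST, was higher in Huh7 cells by 1.23 on the log2 scale (SE 0.29, adjusted p = 0.00433, edgeR), and MESTIT1, antisense to MEST, did not pass (log2 difference 0.14, SE 0.64, adjusted p = 0.885, edgeR). Strand was not used in the counting, so reads of a gene and its antisense partner were parted by position only.

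The genes most like IGF2 over the 4 libraries, by the distance between centred log2(FPKM + 0.1) values among 17616 genes, were NANOGP4, OSMR and ZNF704, at distances of 0.16, 0.17 and 0.21. OSMR, a receptor subunit for oncostatin M, had 10.9 and 13.7 FPKM in Huh7 cells against 0.138 and 0.122 in PLC cells. Those most like H19 were MAGED1, CALB1 and MSN, at 0.38, 0.62 and 0.66. MAGED1, the closest, had 0 and 0 FPKM in Huh7 cells against 18.6 and 52.3 in PLC cells. CALB1, a calcium-binding protein, had 0 and 0.0186 FPKM in Huh7 cells against 39.4 and 78.2 in PLC cells. H19 stood at 37.8 and 77.6 in PLC cells, but the distance compares patterns and not levels.

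A further 50 imprinted genes were listed, of which 8 were at 0 everywhere and 34 were tested. Between the lines 6 were higher in Huh7 cells and 9 higher in PLC cells, or 44.1% against 42.9% of all genes, with a median log2 difference of -0.16 against 0.03. SNRPN, a splicing protein gene of the Prader-Willi region, had 0 reads in both Huh7 libraries and 282 and 130 in PLC cells. SNURF, which shares its transcript with SNRPN and whose reads are hard to part from it, had 0 and 0 against 53 and 8. GNAS-AS1 (56 and 16 reads), OSBPL5 (28 and 12) and NDN (12 and 10) were also read in PLC cells alone. IGF2-AS, of the same list, was read in Huh7 cells alone. SNRPN, SNURF and these genes passed the filter on low counts through 1 line alone, so a difference was built into their test. The list had no common direction between the lines. With glucose, edgeR called 0 of the 34. GRB10, an adaptor that restrains insulin and IGF receptor signalling, had ratios of 0.648 in Huh7 and 0.517 in PLC cells. IGF2R, which removes IGF2 from the cell surface, had 0.648 and 0.66, and TFPI2 had 1.64 and 1.6. These 3 passed the thresholds the same way in each line and were named after their values were seen. Of the 23 listed genes eligible in both lines, 1 (4.35%) was thus higher in both and 2 (8.7%) lower, against 5.3% and 3.82% of all genes.

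Of 20 genes that set or keep imprints, 16 were tested, and 8 were higher in Huh7 cells and 0 in PLC cells, or 50% called against 42.9% of all genes. The median log2 difference was 0.63, against 0.03 over all genes. DNMT3A, a de novo DNA methyltransferase, differed by 2.23 (SE 0.26, adjusted p = 1.52e-05, edgeR), and the demethylating enzymes TET3 and TET1 by 1.29 and 1.26. CTCF, named here for the sites above, was higher in Huh7 cells by 0.96 (SE 0.22, adjusted p = 0.00307, edgeR). ZFP57, CTCFL and DPPA3, which act in germ cells or the early embryo, were at 0. With glucose edgeR called 0 of the 16, and 3 of the 16 eligible in both lines (18.8%) were past the thresholds upwards in both, as were 5.3% of the 18108 genes eligible in both lines. UHRF1, which brings DNMT1 to newly copied DNA, had ratios of 1.95 in Huh7 and 2.69 in PLC cells (log2 change 1.13, SE 0.24, adjusted p = 0.075, edgeR). DNMT3B had 2.07 and 2.19, and HELLS, a chromatin remodeller, 1.55 and 2.76. The levels of UHRF1 were 9.74 and 19.1 FPKM in Huh7 cells against 5.52 and 15 FPKM in PLC cells.

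Of 18 genes of the IGF2 axis (receptors, binding proteins and regulators of IGF2), 17 were tested, 9 were higher in Huh7 cells and 3 in PLC cells. That is 70.6% against 42.9% of all genes, with a median log2 difference of 0.97. Among the binding proteins that hold IGF2 outside the cell, IGFBP4 (4.03, SE 0.43, adjusted p = 6.75e-06, edgeR) and IGFBP3 (3.86, SE 0.49, adjusted p = 3.31e-05) were higher in Huh7 cells, and IGFBP6 was read there alone, with 9 and 42 reads. IGFBP6 passed the filter on low counts through Huh7 cells alone, so a difference was built into its test. IGFBP1 was higher in PLC cells (-3.43, SE 0.49, adjusted p = 8.79e-05, edgeR). IGF1 had 87 and 126 reads in Huh7 cells against 6 and 6 in PLC cells. PLAG1, an activator of the fetal IGF2 promoters, was higher in Huh7 cells by 2.54 (SE 0.38, adjusted p = 0.000136, edgeR). Among receptors that bind IGF2, INSR, the insulin receptor, was higher in PLC cells (-1.42, SE 0.21, adjusted p = 0.000106, edgeR) and is named outside the rule, after its value was seen. IGF1R, the main receptor through which IGF2 signals, did not pass between the lines, with a log2 difference of -0.30 (SE 0.29, adjusted p = 0.446, edgeR). Huh7 cells thus read the ligand, and both lines read its receptor, with 1710 to 6895 reads per library.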

How the data were processed

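The deposited counts are whole numbers of reads per gene that the authors made and did not normalize. Per the labels, HISAT2, featureCounts and hg38 were used. Versions, annotation release and strand setting are not given in the sources used here. Of the table, 59652 genes were used, and 5 broken lines for ANK2 were left out. At low and high glucose, totals were 21376239 and 30085303 in Huh7 cells, and those of PLC cells were 30279716 and 16049686.

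FPKM was calculated from counts, table lengths and totals. Ratios used FPKM + 0.1, and their 95% Clopper-Pearson intervals used counts. edgeR 4.0.16 (filterByExpr, TMM, quasi-likelihood, Benjamini-Hochberg, threshold 0.05) fitted line and glucose. Its glucose term was tried on counts simulated with the same change in both lines, which does not test a response that differs between them. The p-values rest on 1 residual degree of freedom, the difference in glucose response between the lines, and on spread borrowed from all genes. They do not measure the spread between replicate cultures, which were not made. DESeq2 1.42.0 was an alternative. Exon sharing was measured on the table's exons.

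Named genes are the 10 members, genes overlapping or next to them, at most 6 genes per list by size of change, and the 3 most similar to IGF2 and H19. Members and lists were chosen with earlier results of these data known.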

Additional observations from a re-analysis of the deposited data

How the results depend on the processing

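Each member kept its direction between the lines under every alternative in which it was tested. With at least 10 counts in every library, IGF2, H19, DLK1 and CDKN1C were not tested. MEST alone lost its call, in the fits without the glucose term that left out the low-glucose or the high-glucose Huh7 library. Its log2 difference there stayed at 0.86 and 0.85. For glucose, 2 log2 changes that had not passed the test turned sign: DLK1 to 0.03 under DESeq2 and CDKN1C to 0.29 without the line term, and the cause was not tested. H19 in PLC cells stayed above 1.5 in all 5 ratio settings, from 1.89 to 2.06, and KCNQ1OT1 in PLC cells fell to 1.38 with a pseudocount of 1 and 1.4 with TMM.

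Counts over all genes moved more. Genes changed with glucose numbered 88, and 526 with no filter on low counts, 27 with at least 10 counts in every library (fewer genes tested), 194 with DESeq2 and 0 without the line term. Without the line term edgeR called 0 members too. Genes different between the lines numbered 9969, and 6340 with at least 10 counts in every library. When 1 library was left out with no glucose term they ranged from 5249 (without Huh7 at high glucose) and 5930 (without Huh7 at low glucose) to 11598 (without PLC at high glucose), where the lone library of a line was assumed to vary like the others. Genes past the thresholds with glucose numbered 6068 in Huh7 cells and 9409 in PLC cells. They came to 3092 and 5982 with a pseudocount of 1, 3427 and 5917 with FPKM over 0.5 in both libraries, and 11199 and 15409 with no filter on FPKM. Between the lines they numbered 15681 at 5 mM and 15491 at 25 mM, and 8710 and 8531 with FPKM over 0.5 in both libraries. A pseudocount of 0 gives no ratio where a library has 0 reads. Lengths of free bases and scaling by genes with at least 100 counts in every library were chosen after seeing the data. The fit with the line term compared the glucose levels within each line. With 1 library for each combination of line and glucose, there were no replicate cultures to pair. Depth limits H19 in Huh7 cells and CDKN1C, MEG3 and PEG3 in PLC cells, which rest on at most 18 reads.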
